A study of Mus musculus with 12 samples.

Results

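The enzymes of amino acid breakdown and of the methionine cycle were followed as 46 genes, taken by symbol from the gene rows of the count table, which held 53599 genes in all. The 46 genes cover the breakdown of phenylalanine and tyrosine, tryptophan, histidine, serine and glycine, proline, lysine and the branched-chain amino acids, the methionine cycle, the oxidation of dimethylglycine and sarcosine, and transsulfuration with taurine synthesis. All 46 passed the filter on low counts and were among the 16210 genes tested. RNA was sequenced from sorted liver cells of mice whose genotype is given as WT, with 3 libraries in each of 4 groups. Every mouse had received AAV8-TBG-Cre, a virus whose hepatocyte promoter drives Cre so that hepatocytes and their descendants carry a lineage mark, and from 1 week later was fed 0.1% DDC, a compound that injures bile ducts, for 8 weeks. Early cells were sorted as EGFP+ Cd24- Epcam-, intermediate cells as EGFP+ Cd24+ Epcam-, full cells as EGFP+ Cd24+ Epcam+, and biliary epithelial cells (BEC) as EGFP- Epcam+. All 12 libraries came from mice on DDC, so early cells are marked hepatocytes of injured liver that lack both surface markers. Strain, sex, age and the number of animals behind a library are not given in the sources used here, and p-values therefore measure the spread between these libraries, which may be technical.

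Hepatocytes are the main site of amino acid breakdown in the body. They remove the amino group largely by transaminases, which use pyridoxal phosphate, and pass the carbon skeletons to energy metabolism and glucose synthesis. Branched-chain amino acids are an exception, since their transamination is known to take place largely outside the liver. In the methionine cycle, methionine is turned into S-adenosylmethionine, the methyl donor of the cell, which yields S-adenosylhomocysteine and then homocysteine. Homocysteine is either methylated back to methionine, in liver largely with betaine, or passed through cystathionine to cysteine, the source of taurine. Bile duct cells line the ducts, modify bile and are not known for these pathways.

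Library totals ranged from 15112893 to 19731887 counts. Levels are in CPM, counts scaled to a common library size after TMM, edgeR's correction for composition. The standard error (SE) beside a log2 change is that of the fit. A gene is said to be called, to have risen or to have fallen where edgeR's quasi-likelihood test, fitted to all 12 libraries, gave a p under 0.05 after Benjamini-Hochberg adjustment across the 16210 genes. Hepatocyte and biliary markers went with the labels of the groups. The biliary markers include Epcam, on which the cells were sorted, so that part of the match is not independent of the sort. The summed level of 8 hepatocyte markers was 100269 ± 2161 CPM (SD, n = 3) in early and 17549 ± 2409, 3504 ± 552 and 2252 ± 335 CPM in intermediate, full and BEC, and that of 8 biliary markers was 1299 ± 508, 10273 ± 1499, 12534 ± 1762 and 14866 ± 1857 CPM. The biliary sum is weighted to the abundant markers. Gene by gene, the biliary markers had a median log2 change of 3.22 in intermediate against early and of 3.75 in full against intermediate. Of the 8, 1 had no counts in intermediate. Macrophage markers (7 genes) summed to 23.0, 32.4, 75.9 and 141 CPM in early, intermediate, full and BEC, and their part in the results was not tested. Stellate cell and fibroblast markers (6 genes) summed to between 52.5 and 172 CPM in early libraries, 26.3 and 102 in intermediate, 24.8 and 43.1 in full and 42.8 and 76.5 in BEC. Endothelial markers (6 genes) summed to 17.7, 10.3, 2.94 and 3.90 CPM in early, intermediate, full and BEC, and erythroid markers (4 genes) to 24.5, 2.63, 0.571 and 0.819 CPM, and their part was not tested. In full against early, 5 of the 6 stellate cell and fibroblast markers, 3 of the 5 endothelial markers tested and the 1 erythroid marker tested were called lower. The share of counts from mitochondrial genes was 5.45% to 11.4% in early, with early replicate 2 the highest, 3.99% to 4.75% in intermediate, 2.20% to 2.48% in full and 2.58% to 3.43% in BEC, and its part was not tested either. All 6 T, NK and B cell markers were at or under 3 counts in early, intermediate and full. Total counts in place of TMM moved the median log2 change over the genes tested from 0.06 to 0.72 between intermediate and early, from 0.01 to 0.21 between full and intermediate, and from 0.14 to 1.004 between BEC and early. Directions below are relative to the TMM scale.

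The whole set fell. The 46 genes summed to 23246 ± 528 CPM in early, 4668 ± 414 in intermediate, 1531 ± 105 in full and 916 ± 137 in BEC (mean ± SD of 3 libraries), so intermediate held 20.1% of the early level, full 6.59% and BEC 3.94%. With total counts only the shares were 31.8%, 11.996% and 7.19%. By library the sums were 22680, 23333 and 23725 CPM in early, 4213, 4769 and 5023 in intermediate, 1502, 1444 and 1648 in full, and 787, 901 and 1060 in BEC. No library of any group reached the range of the next. In bulk samples, fewer cells that express a gene and less RNA per cell cannot be told apart.

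Gene by gene, the median level relative to early was 21.7% in intermediate, 6.83% in full and 1.92% in BEC. Among the 4 groups, all 46 genes differed by edgeR's F test, where 75.6% of all genes tested did. Both full and BEC had all 46 genes called lower than early, with a median log2 fold change of -3.90 in full and -5.70 in BEC, where the median of all genes was 0.14 in each. Of all genes tested, 32.1% were called lower and 39.1% higher in full than in early, and 33.0% lower and 40.0% higher in BEC than in early. These comparisons share the early libraries. The range among the 46 was wide: BEC held 1.01% of the early level of Ftcd and 55.4% of that of Amt.

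**Figure D1:**
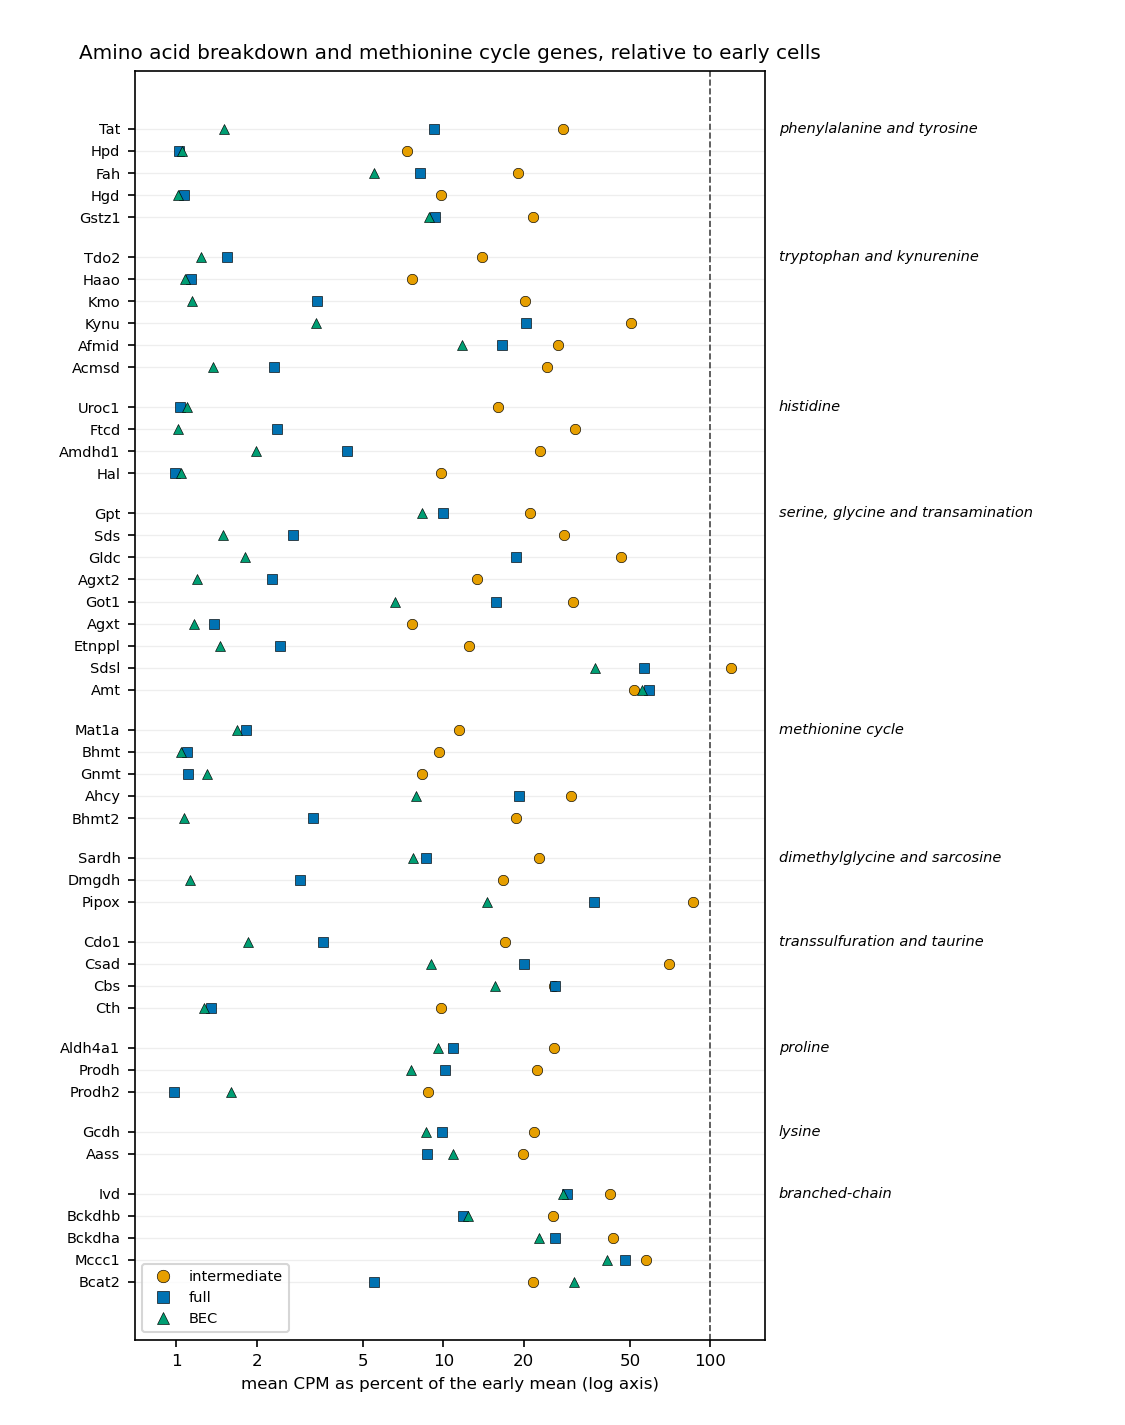
Mean level of each of the 46 genes in intermediate (circles), full (squares) and BEC (triangles), as percent of its early mean, on a log axis (3 libraries per group). Genes are grouped by branch, and the dashed line marks the early level. In BEC, 24 genes lie between 1.01% and 1.99%, while Amt, Mccc1, Sdsl, Bcat2 and Ivd stay above 25%.

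At the first step, from early to intermediate, 44 of the 46 genes fell and none rose, with a median log2 fold change of -2.20 against 0.06 over all genes. Of all genes tested, 25.7% were called lower and 28.7% higher. Sdsl (0.25, edgeR adjusted p 0.0873) and Pipox (-0.22, edgeR adjusted p 0.0973) were not called. With the replicate number as a block, Pipox was called (-0.22, edgeR adjusted p 0.0494). At the second step, from intermediate to full, 43 of the 46 fell and none rose, with a median of -1.89 against 0.01 over all genes, where 19.8% of all genes were called lower and 20.8% higher. Cbs, Amt and Mccc1 were not called. Mccc1 was called with the block (-0.26, edgeR adjusted p 0.0300). Between BEC and full, 18 genes were lower in BEC, 1 was higher and 27 were not called, with a median of -0.29, where 10.6% of all genes were called lower and 10.7% higher. The steps share the intermediate libraries, and the last 2 comparisons share the full ones.

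In the breakdown of phenylalanine and tyrosine, all 5 genes fell at both steps. Tat, tyrosine aminotransferase and the entry to the pathway, had 1345, 1984 and 1945 CPM in early, 428, 522 and 532 in intermediate, 141, 161 and 184 in full and 11.8, 30.6 and 36.9 in BEC. No 2 groups overlapped, and Tat was 6.13-fold higher in full than in BEC (log2 change -2.61 ± 0.31 SE, edgeR adjusted p 3.88e-05). Hgd, which opens the ring of homogentisate, had 484, 476 and 562 CPM in early, 41.4, 50.1 and 57.1 in intermediate, 3.83, 4.64 and 7.78 in full and 3.81, 3.49 and 8.13 in BEC. Its full and BEC libraries overlapped, at about 1% of the early level, after falls at the first step (log2 change -3.36 ± 0.27 SE, edgeR adjusted p 2.56e-07) and the second (log2 change -3.19 ± 0.29 SE, edgeR adjusted p 1.69e-06). Gstz1, the isomerase after Hgd, fell least over the whole range, with 440.5, 516 and 535 CPM in early, 93.1, 107 and 123 in intermediate, 41.4, 45.04 and 52.4 in full and 39.8, 44.6 and 46.7 in BEC. BEC held 8.79% of its early level, and full and BEC overlapped. Hpd, which makes homogentisate, had a mean of 791 CPM in early, 8.12 in full and 8.32 in BEC. Fah, the last enzyme of the pathway, fell to 8.15% of early in full and was lower again in BEC (log2 change -0.56 ± 0.11 SE, edgeR adjusted p 0.00145). The branch therefore held genes near 1% of early (Hpd, Hgd) and genes with a mean above 5% (Fah, Gstz1) in BEC.

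All 6 genes of the tryptophan and kynurenine branch fell at both steps as well, although Afmid at the second step was not called with total counts only (-0.50, edgeR adjusted p 0.0570). Tdo2, the dioxygenase that opens the indole ring, had 734, 1151 and 1104 CPM in early, 99.5, 156 and 163 in intermediate, 11.5, 13.7 and 20.9 in full and 4.96, 11.9 and 20.01 in BEC. BEC replicate 1 was the lowest library and BEC replicates 2 and 3 lay within the full range (-0.32, edgeR adjusted p 0.651 for BEC against full). Haao, which acts on hydroxyanthranilate, had 346, 328 and 367 CPM in early, 24.3, 28.5 and 26.7 in intermediate, 2.89, 3.30 and 5.64 in full and 2.17, 3.49 and 5.53 in BEC, and its full and BEC libraries overlapped. Afmid, the formamidase after Tdo2, had 26.8, 36.2 and 42.4 CPM in early, 10.2, 8.93 and 9.23 in intermediate, 5.06, 6.51 and 5.86 in full and 3.23, 4.66 and 4.48 in BEC. Its early libraries were spread, and its intermediate, full and BEC libraries did not overlap, although BEC against full was not called (-0.49, edgeR adjusted p 0.101). Kynureninase (Kynu) kept 20.3% of the early level in full, the largest share of the 6 genes, and was much lower in BEC: its libraries read 30.5, 29.1 and 35.5 CPM in full and 5.92, 4.99 and 4.75 in BEC (log2 change -2.60 ± 0.13 SE, edgeR adjusted p 2.32e-08). Kmo, which hydroxylates kynurenine, was also lower in BEC than in full (log2 change -1.54 ± 0.28 SE, edgeR adjusted p 0.00126). Acmsd, which directs the pathway away from NAD synthesis, had only between 3 and 14 counts in each full and BEC library, and these groups were not called apart (-0.74, edgeR adjusted p 0.338).

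The histidine branch fell furthest at the second step, with a median log2 fold change of -3.51 over its 4 genes, all called at both steps. Uroc1, urocanate hydratase, had 535, 626 and 696 CPM in early, 74.3, 89.9 and 133 in intermediate, 3.66, 5.75 and 9.71 in full and 3.47, 5.45 and 11.5 in BEC. Full and BEC overlapped. Ftcd, which passes the formimino group of histidine to folate, had 508, 557 and 577 CPM in early, 144, 163 and 203 in intermediate, 10.6, 10.4 and 17.9 in full and 4.48, 3.91 and 8.18 in BEC. It fell less at the first step (log2 change -1.69 ± 0.23 SE, edgeR adjusted p 3.64e-05) than at the second (log2 change -3.71 ± 0.26 SE, edgeR adjusted p 2.09e-07), and its BEC libraries were all under the full ones (log2 change -1.23 ± 0.27 SE, edgeR adjusted p 0.00409). Amdhd1, the enzyme between Uroc1 and Ftcd, had 217, 236 and 235 CPM in early, 48.2, 54.7 and 55.4 in intermediate, 8.42, 9.77 and 11.8 in full and 3.52, 4.75 and 5.39 in BEC. Its groups did not overlap. Hal, the ammonia-lyase that opens the branch, stood at 0.992% of early in full and 1.04% in BEC.

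Hal and Ftcd, the first and last enzymes of this branch, both carry the letters TATAAA close to the RefSeq start site. The 100 bases before each start are shown because these genes were among the lowest of the set in BEC relative to early. The letters are in capitals (the reverse complement TTTATA in Hal), and they begin 28 bases before the start in Hal and 29 in Ftcd. The stretches are chr10:93488668-93488767 for Hal and chr10:76575548-76575647 for Ftcd, plus strand, RefSeq on GRCm38.p6.
Hal: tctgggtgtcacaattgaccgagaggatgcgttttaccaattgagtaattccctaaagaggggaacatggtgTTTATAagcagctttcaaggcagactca
Ftcd: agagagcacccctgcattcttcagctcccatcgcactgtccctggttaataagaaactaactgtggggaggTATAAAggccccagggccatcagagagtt
TATAAA on either strand was found in 6 of the 45 RefSeq windows matched to the set (250 bases before to 50 after a start site), in 5 genes, and in 13.6% of all 32851 windows. A match is a description of the letters.

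Of the 9 genes of serine and glycine breakdown and transamination, 8 fell at the first step and 8 at the second. Gpt, cytosolic alanine aminotransferase, had 489, 479 and 558 CPM in early, 98.1, 112 and 113 in intermediate, 53.4, 49.01 and 49.5 in full and 34.97, 40.7 and 51.1 in BEC. Full and BEC overlapped. Agxt, which converts glyoxylate to glycine, had 174, 159.8 and 158 CPM in early, 11.1, 14.6 and 11.8 in intermediate, 1.79, 1.61 and 3.41 in full and 1.20, 1.77 and 2.74 in BEC, with full and BEC again overlapping near 1% of early. Amt, the aminomethyltransferase of the mitochondrial glycine cleavage system, had 46.3, 40.6 and 38.3 CPM in early, 20.6, 22.8 and 21.5 in intermediate, 24.6, 25.999 and 22.8 in full and 23.7, 23.1 and 22.5 in BEC. It fell at the first step (log2 change -0.95 ± 0.10 SE, edgeR adjusted p 3.28e-06), and full against intermediate (0.18, edgeR adjusted p 0.182) and BEC against full (-0.082, edgeR adjusted p 0.656) were not called. Amt was the smallest fall of the set between BEC and early (-0.85), a difference that was 0.017 with total counts only. Gldc, the decarboxylase of the same cleavage system, behaved otherwise: full kept 18.7% of early, and its libraries read 54.2, 49.4 and 52.9 CPM in full but 3.03, 5.78 and 6.26 in BEC (log2 change -3.37 ± 0.20 SE, edgeR adjusted p 1.27e-07).

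Serine dehydratase (Sds) fell at the first step, and its relative Sdsl was not called. Sds read 259.9, 275 and 362 CPM in early and 73.2, 88.2 and 92.7 in intermediate (log2 change -1.82 ± 0.22 SE, edgeR adjusted p 9.01e-06), whereas Sdsl read 46.9, 45.02 and 38.3 and 54.3, 49.8 and 51.1 CPM, all intermediate libraries lying above the early ones without a call (edgeR adjusted p 0.0873). Sdsl was called higher without BEC replicate 1 in the fit (edgeR adjusted p 0.0296), and so it was under total counts (0.92, edgeR adjusted p 1.11e-05). At the second step Sdsl fell (log2 change -1.08 ± 0.12 SE, edgeR adjusted p 8.67e-06), to 25.4, 24.2 and 23.7 CPM in full and then 13.01, 17.3 and 17.6 in BEC, which held 36.8% of the early level. Sds fell to 6.76, 6.20 and 11.5 CPM in full and read 3.28, 4.05 and 6.03 in BEC. The latter difference was called (-0.87, edgeR adjusted p 0.0281), but not without BEC replicate 1 (edgeR adjusted p 0.121), BEC replicate 2 (0.0983) or full replicate 3 (0.160). Got1, cytosolic aspartate aminotransferase, fell at each step and was lower in BEC than in full (log2 change -1.26 ± 0.12 SE, edgeR adjusted p 4.19e-06).

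Agxt2, a mitochondrial aminotransferase, and Etnppl, which breaks down phosphoethanolamine, fell to 2.28% and 2.45% of early in full. BEC against full was not called for Agxt2 (-0.93, edgeR adjusted p 0.0716) or Etnppl (-0.74, edgeR adjusted p 0.0508). The former was called by DESeq2 (adjusted p 0.0248), and by edgeR with full replicate 2 left out (adjusted p 0.00233) or BEC replicate 3 left out (0.0299), and the latter with the replicate block (-0.74, edgeR adjusted p 0.0416), by DESeq2 (adjusted p 0.0192) and without full replicate 1 (edgeR adjusted p 0.00694). Both were called with no filter on low counts (edgeR adjusted p 0.000157 for Agxt2 and 0.00293 for Etnppl). Agxt2 and Pipox were the genes of the set whose windows hold CAAAGTCCA, a core recognised by the hepatocyte factor HNF4, which was found in 0.475% of all windows. In Agxt2 the letters, in capitals, begin 21 bases before the start site (chr15:10358433-10358532, plus strand, RefSeq on GRCm38.p6), and in Pipox they lie after it. The C/EBP palindrome TTGCGCAA was in 0 of the 45 windows and in 0.183% of all.
Agxt2: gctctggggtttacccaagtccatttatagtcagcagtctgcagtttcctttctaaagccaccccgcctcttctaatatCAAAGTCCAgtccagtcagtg

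In the methionine cycle, all 5 genes fell at both steps, and the order of levels within the cycle changed. Mat1a, the liver form of methionine adenosyltransferase, had 3772, 3885 and 4064 CPM in early, 368, 427 and 547 in intermediate, 61.2, 63.9 and 87.6 in full and 51.9, 56.2 and 89.2 in BEC. It fell 8.74-fold at the first step (log2 change -3.13 ± 0.22 SE, edgeR adjusted p 7.23e-08) and further at the second (log2 change -2.66 ± 0.22 SE, edgeR adjusted p 7.06e-07), and full and BEC overlapped. Bhmt, which remethylates homocysteine with betaine, had 2129, 1993 and 1681 CPM in early, 185, 223 and 149 in intermediate, 20.6, 19.6 and 23.7 in full and 16.3, 18.5 and 25.6 in BEC. Its mean in BEC was 95.99-fold under that in early, and again full and BEC overlapped. Gnmt, which uses up S-adenosylmethionine by methylating glycine, fell to 1.11% of early in full. Ahcy, which splits S-adenosylhomocysteine, had 940.05, 917 and 1019 CPM in early, 244, 321 and 298 in intermediate, 189.9, 183 and 181 in full and 74.6, 75.9 and 76.7 in BEC. It kept 19.3% of the early level in full and 7.90% in BEC, where it was lower than in full (log2 change -1.29 ± 0.10 SE, edgeR adjusted p 1.24e-06). Per kilobase of the longest transcript, Mat1a had the highest mean of the 46 genes in early (1127 CPM per kb, against 377 for Ahcy), and Ahcy the highest in full (72.6, against 20.5 for Mat1a) and in BEC (29.8 against 18.97).

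**Figure D2:**
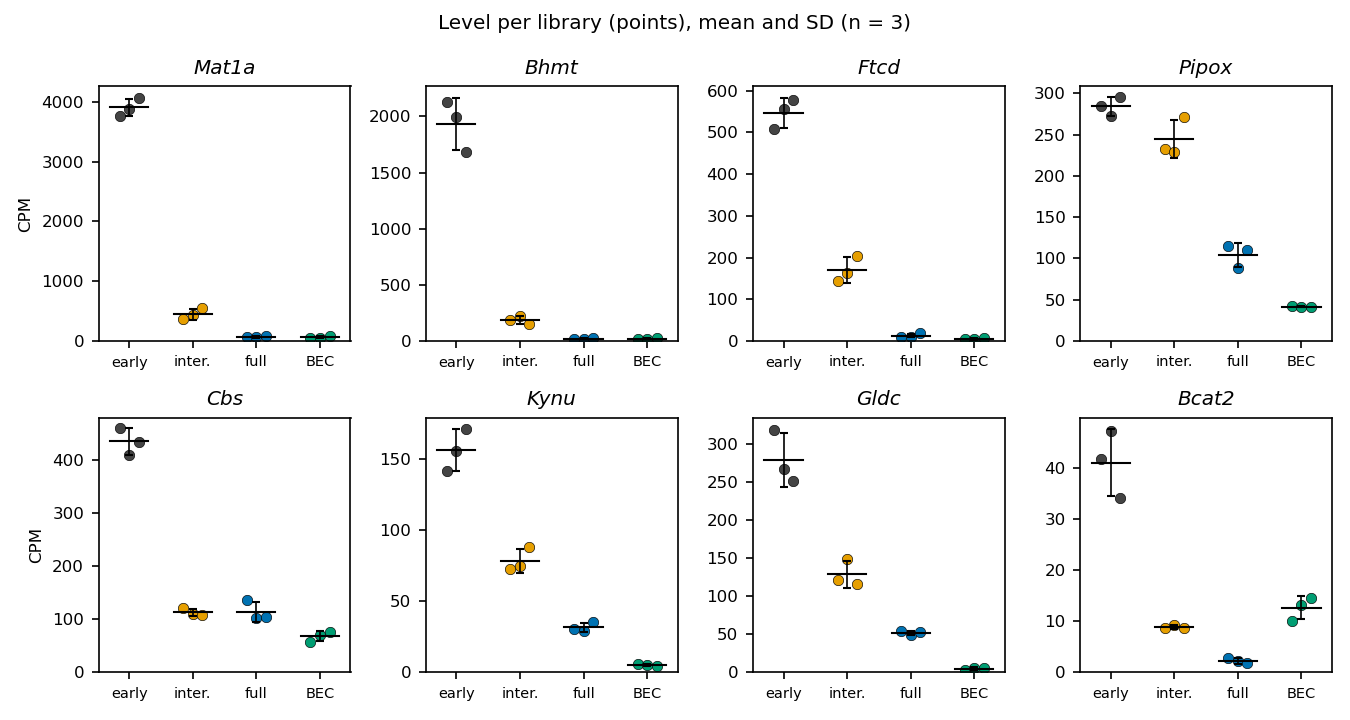
CPM of 8 genes in each library (points), with the group mean (bar) and SD (n = 3). Mat1a, Bhmt and Ftcd are near the axis in full and BEC, Pipox falls after intermediate, Cbs is level between intermediate and full, Kynu and Gldc drop between full and BEC, and Bcat2 is higher in BEC than in full.

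Dimethylglycine, the product of the betaine reaction, is oxidised by Dmgdh to sarcosine, and sarcosine by Sardh in mitochondria or Pipox in peroxisomes. Dmgdh had 401, 330.02 and 370.4 CPM in early, 58.6, 61.6 and 63.5 in intermediate, 8.30, 8.56 and 15.001 in full and 2.55, 3.82 and 6.03 in BEC. Groups did not overlap, and BEC was lower than full (log2 change -1.35 ± 0.27 SE, edgeR adjusted p 0.00209). Sardh had 595, 627 and 796 CPM in early, 113, 157 and 189 in intermediate, 56.2, 58.7 and 59.4 in full and 42.6, 53.3 and 59.9 in BEC, fell at both steps, and overlapped between full and BEC. Pipox, which also oxidises the lysine product pipecolate, had 284, 272 and 296 CPM in early, 233, 229 and 271 in intermediate, 115, 88.1 and 109.6 in full and 42.005, 41.2 and 40.7 in BEC. Its early and intermediate libraries lay close without overlap, and the difference turned direction with total counts only (0.45, edgeR adjusted p 0.00125), while it was called lower by DESeq2 (adjusted p 0.0336), with median-of-ratios factors (edgeR adjusted p 0.0432) and without intermediate replicate 3 (0.0451). Pipox then fell at the second step (log2 change -1.23 ± 0.11 SE, edgeR adjusted p 1.09e-06) and was lower in BEC than in full (log2 change -1.33 ± 0.11 SE, edgeR adjusted p 1.24e-06).

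Bhmt2, which remethylates homocysteine with S-methylmethionine, and Dmgdh start head to head on chromosome 13 in RefSeq, with 133 bases between the start sites. Bhmt2 read 258, 255 and 269.9 CPM in early, 41.1, 53.97 and 51.2 in intermediate, 8.04, 6.11 and 11.2 in full and 1.88, 2.61 and 3.84 in BEC, where it was lower than in full (log2 change -1.60 ± 0.24 SE, edgeR adjusted p 0.000297). Both stood near 3% of early in full (3.24% and 2.89%) and near 1% in BEC (1.06% and 1.13%). Such shares were not particular to this pair, since Kmo, on chromosome 1, stood at 3.36% and 1.15%. The stretch between the start sites is shown because these neighbours stood at nearly the same share of early in full and in BEC. It lies at chr13:93674303-93674435 on GRCm38.p6, is given on the plus strand (the strand of Dmgdh), and holds 6 CpG, in capitals.
Bhmt2-Dmgdh: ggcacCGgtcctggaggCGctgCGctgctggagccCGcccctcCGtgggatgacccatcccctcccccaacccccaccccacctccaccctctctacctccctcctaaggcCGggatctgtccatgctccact

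Transsulfuration and taurine synthesis held genes with unlike courses. Cdo1, cysteine dioxygenase, had 1967, 1509.8 and 1217 CPM in early, 293, 262 and 240.2 in intermediate, 56.8, 50.2 and 58.998 in full and 28.04, 26.98 and 31.7 in BEC, the early libraries being the most spread. Groups did not overlap, and BEC was lower than full (log2 change -0.94 ± 0.16 SE, edgeR adjusted p 0.000618). Cth, which splits cystathionine to cysteine, had 346, 371 and 394 CPM in early, 28.1, 42.7 and 38.2 in intermediate, 3.28, 5.93 and 5.77 in full and 3.23, 4.57 and 6.31 in BEC and fell at both steps to overlapping levels in full and BEC. Cbs, the enzyme before Cth that commits homocysteine to this route, had 459, 409.8 and 434 CPM in early, 121, 109.97 and 108 in intermediate, 135, 102 and 105 in full and 57.7, 70.03 and 76.3 in BEC. It fell at the first step (log2 change -1.94 ± 0.13 SE, edgeR adjusted p 4.25e-08), did not differ detectably between full and intermediate (log2 change 0.014 ± 0.13 SE, edgeR adjusted p 0.942), and was lower in BEC than in full (log2 change -0.75 ± 0.13 SE, edgeR adjusted p 0.000677). So full cells kept 26.3% of the early Cbs level and 1.35% of that of Cth. Csad, which makes the precursor of taurine from cysteine sulfinate, fell little at the first step, to 70.02% of early (log2 change -0.51 ± 0.16 SE, edgeR adjusted p 0.0129). The first-step call did not hold without early replicate 1 (edgeR adjusted p 0.0676), the highest of the group, and without intermediate replicate 2 (0.0637), and the difference was 0.15 with total counts only. Csad fell at the second step (log2 change -1.81 ± 0.16 SE, edgeR adjusted p 1.41e-06) and was lower in BEC than in full (log2 change -1.15 ± 0.16 SE, edgeR adjusted p 0.000145).

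All 3 proline genes and both lysine genes fell at the first and the second step. Aldh4a1, the dehydrogenase shared by proline and hydroxyproline breakdown, had 227, 232 and 283 CPM in early, 52.8, 61.1 and 78.1 in intermediate, 25.4, 23.1 and 32.01 in full and 19.6, 22.6 and 28.6 in BEC. Full and BEC overlapped. Prodh2, hydroxyproline dehydrogenase, had 137, 146 and 148 CPM in early, 9.996, 14.03 and 13.8 in intermediate, 0.851, 0.803 and 2.58 in full and 1.25, 2.42 and 3.24 in BEC, with full replicate 3 the highest of its group. BEC against full was not called for Prodh2 (0.71, edgeR adjusted p 0.263), and was called higher without full replicate 3 (1.48, edgeR adjusted p 0.0127). Prodh, proline dehydrogenase, was slightly lower in BEC than in full (log2 change -0.42 ± 0.10 SE, edgeR adjusted p 0.00832). Gcdh, glutaryl-CoA dehydrogenase, had 369, 338 and 374 CPM in early, 71.7, 84.4 and 79.6 in intermediate, 37.1, 31.8 and 37.7 in full and 27.2, 28.7 and 37.3 in BEC. Aass, which starts lysine breakdown, had 244, 308 and 391 CPM in early, 47.3, 59.7 and 80.1 in intermediate, 22.8, 25.8 and 33.2 in full and 30.3, 33.3 and 38.6 in BEC. The BEC and full libraries of both lysine genes overlapped, and Aass was called higher in BEC with the replicate block (0.33, edgeR adjusted p 0.0120, against 0.346 without).

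The branched-chain genes fell least of the larger branches, with a median log2 fold change between BEC and early of -1.83 over 5 genes, where the 46 had -5.70. Ivd, isovaleryl-CoA dehydrogenase of leucine breakdown, had 159.9, 183 and 195 CPM in early, 65.4, 73.1 and 86.7 in intermediate, 48.8, 50.5 and 56.7 in full and 42.9, 50.6 and 57.2 in BEC. Bckdhb, a subunit of the branched-chain ketoacid dehydrogenase, had 103, 88.2 and 86.1 CPM in early, 25.3, 24.3 and 22.02 in intermediate, 10.04, 11.3 and 11.5 in full and 13.3, 10.7 and 10.2 in BEC. Both overlapped between full and BEC. The fall of Ivd at the second step (-0.53) was not called with total counts only (-0.33, edgeR adjusted p 0.0528). Mccc1, the biotin-carrying subunit of methylcrotonyl-CoA carboxylase, had 64.1, 68.8 and 69.6 CPM in early, 34.5, 38.2 and 43.2 in intermediate, 26.8, 36.4 and 33.5 in full and 25.5, 28.8 and 28.6 in BEC. It fell at the first step (log2 change -0.80 ± 0.12 SE, edgeR adjusted p 6.64e-05), which was not called with total counts only (-0.14, edgeR adjusted p 0.320), and full overlapped with intermediate and BEC. Bckdha kept 26.1% of early in full and 22.8% in BEC.

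Bcat2, the mitochondrial branched-chain aminotransferase, was the only 1 of the 46 genes called higher in BEC than in full. It had 41.8, 47.2 and 34.2 CPM in early, 8.61, 9.31 and 8.77 in intermediate, 2.85, 2.14 and 1.79 in full and 10.1, 13.3 and 14.5 in BEC. The groups did not overlap, and all 3 BEC libraries lay above the intermediate as well as the full ones. Bcat2 fell at the first step (log2 change -2.20 ± 0.18 SE, edgeR adjusted p 2.47e-07) and the second (log2 change -1.97 ± 0.20 SE, edgeR adjusted p 4.31e-06), and was 5.59-fold higher in BEC than in full (log2 change 2.48 ± 0.20 SE, edgeR adjusted p 1.08e-06). The full libraries held 41 to 67 counts of it and the BEC libraries 210 to 318. Bcat1, its cytosolic counterpart, had at most 3 counts in any library and was not tested.

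Whether a gene fell more at the first or the second step was tested as the difference of the 2 log2 fold changes. Of the 46 genes, 13 fell more at the first step and 5 more at the second, while 28 were not called. With the replicate block, 19 fell more at the first step and 7 more at the second. Over all genes tested, 5.64% had a more negative change at the first step and 10.8% a more negative change at the second. Among the called genes, Cbs showed the largest difference toward the first step (log2 change -1.96 ± 0.23 SE, edgeR adjusted p 6.17e-05), followed by Afmid (-1.19), Fah (-1.16), Gpt (-1.15), Aass (-1.14), Amt (-1.12), Ahcy (-1.10), Gcdh (-1.05), Prodh (-1.02) and Gstz1 (-0.98). Ftcd showed the largest toward the second (log2 change 2.03 ± 0.39 SE, edgeR adjusted p 0.00310), with Sds (1.56), Sdsl (1.34), Csad (1.30) and Pipox (1.01). With total counts only, 7 genes fell more at the first step and 9 more at the second. Gstz1, Afmid, Got1, Aass, Bckdhb and Ivd lost their calls on that scale (edgeR adjusted p from 0.0711 for Gstz1 to 0.375 for Ivd).

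Some of these calls were lost when 1 library was left out. Without intermediate replicate 2, 8 genes fell more at the first step. Aass, between -1.57 and -0.80 over the 12 fits, had an adjusted p of up to 0.197 by edgeR when intermediate replicate 1 was left out, and lost its call without early replicate 2 or 3, intermediate replicate 2, full replicate 2 or 3, or any BEC library, and when only the groups compared were fitted (-1.15, edgeR adjusted p 0.0662). Ivd (-0.72, and between -0.95 and -0.54) reached an edgeR adjusted p of 0.189 without intermediate replicate 1 and lost its call without early replicate 2 or 3, intermediate replicate 2, any full library or BEC replicate 2. Afmid, between -1.35 and -1.02, lost it without early replicate 3, intermediate replicate 2 or 3, or full replicate 2 (edgeR adjusted p up to 0.105). Got1 and Bckdhb lost theirs without intermediate replicate 2 or 3 (edgeR adjusted p up to 0.0904 and 0.0806), and Sds without intermediate replicate 2 (0.0505).

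**Figure D3:**
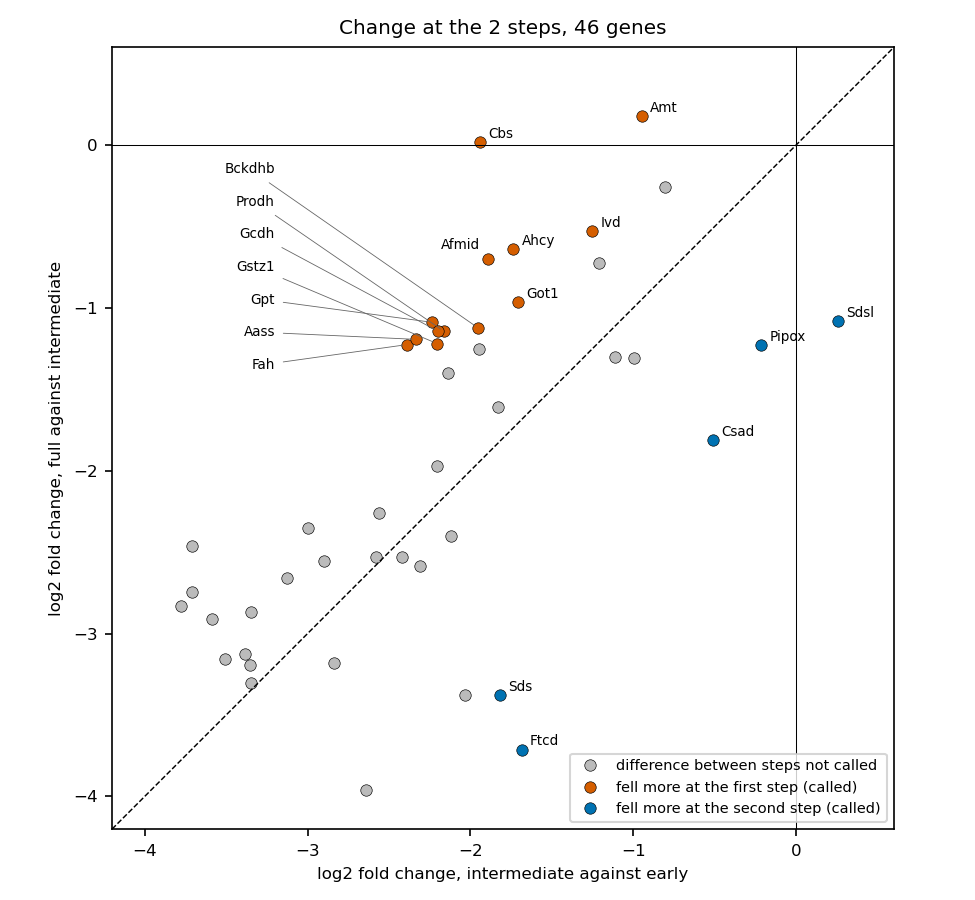
Log2 fold change of each of the 46 genes at the first step (intermediate against early, horizontal) and the second (full against intermediate, vertical). On the dashed line the changes are equal, and both axes use the intermediate libraries. Orange points (13) fell more at the first step and blue points (5) more at the second by edgeR's test of the difference, with Cbs and Amt near 0 on the vertical axis and Sdsl and Pipox near 0 on the horizontal axis.

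What still separated full cells from BEC was spread over most branches. The 18 genes lower in BEC included Gldc, Tat, Kynu, Bhmt2, Kmo and Dmgdh with the largest differences, and reached down to Prodh at -0.42. Of the 18, 12 differed by at least 2-fold. The 27 genes not called had log2 fold changes between -0.93 and 0.71. For Hpd this was 0.039, for Bhmt -0.078 and for Mat1a -0.11, each smaller than its SE. A missing call does not show that these levels were equal.

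**Figure D4:**
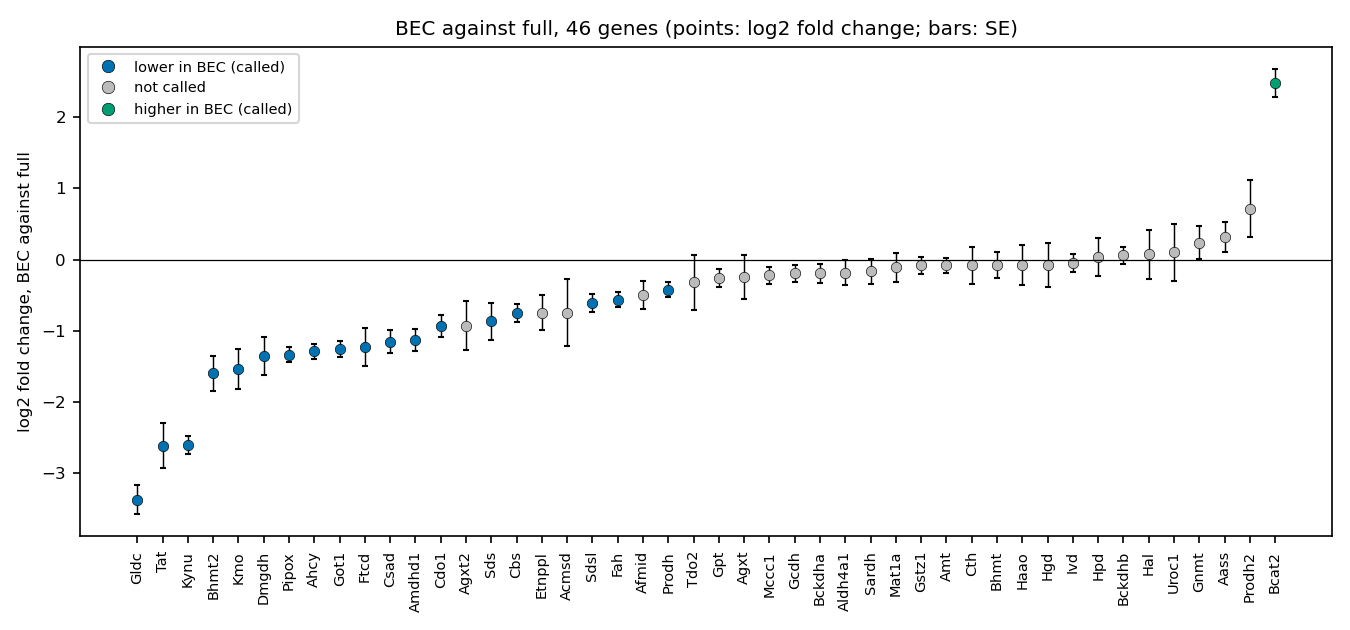
Log2 fold change of BEC against full for each of the 46 genes in rising order, with the standard error of the fit (3 libraries per group). The 18 called lower genes (blue) run from Gldc to Prodh, and Bcat2 (green), at 2.48, is the called higher gene.

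In BEC, 24 of the 46 genes stood below 2% of their early mean, from 1.01% to 1.99%, and the other 22 lay at 3.34% (Kynu) or more. The 2% limit was chosen after the values were seen, so the 24 genes are low by choice. The count depends on the scale: with total counts only, 7 of the 46 genes were under 2% in BEC, the 24 genes lay between 1.84% and 3.62%, and the other 22 at 6.08% or more. In full, 12 of the 46 were below it. The median of the low genes varied by library: in BEC replicates 1, 2 and 3 the median over the 24 was 0.784%, 1.18% and 1.72% of the early mean. Over 8 hepatocyte markers it was 1.03%, 1.30% and 1.86% in the same libraries. Not every gene kept this order. Hgd, Ftcd, Acmsd, Etnppl and Cdo1, and the markers Alb, Ttr and Serpina1a, were lowest in BEC replicate 2. In full replicates 1, 2 and 3 the median over the 24 genes was 1.58%, 1.62% and 2.17%. Over the markers it was 2.01%, 2.31% and 3.02% in the same full libraries. In BEC, 5 of the 8 markers were under 2% of early on average, whereas Alb stood at 2.25%, Ttr at 4.94% and Hnf4a at 11.4%. The part of RNA from other cells in these residual levels was not tested. The other 22 genes had medians of 8.78%, 9.95% and 11.3% in the 3 BEC libraries.

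**Figure D5:**
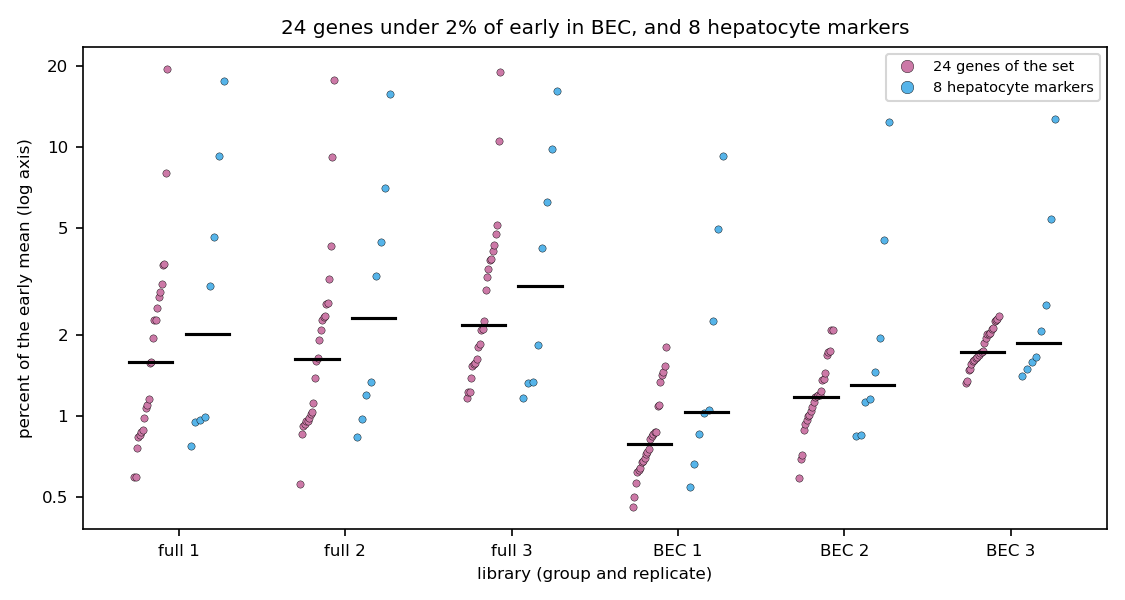
Level of the 24 genes that stood under 2% of early in BEC (pink) and of 8 hepatocyte markers (blue) in each full and BEC library, as percent of the early mean on a log axis, with the median (bar). Among BEC libraries both medians are lowest in replicate 1 (0.784% and 1.03%) and highest in replicate 3 (1.72% and 1.86%).

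Described by cofactor and compartment, the 14 enzymes that use pyridoxal phosphate had 13 members lower at the first step, 13 at the second, and 8 lower and 1 (Bcat2) higher in BEC than in full. The other 32 genes had 31, 30 and 10 lower and 0 higher in these comparisons. Of all genes tested, 25.7%, 19.8% and 10.6% were lower and 28.7%, 20.8% and 10.7% higher. The 15 enzymes listed for the mitochondrial matrix or inner membrane had a median log2 fold change of -2.14 at the first step and -1.19 at the second, and the 31 not on that list, which include Kmo of the outer membrane, one of -2.31 and -2.46. Between BEC and early the medians were -3.39 and -6.06. In BEC against full, 3 of these 15 enzymes (Gldc, Dmgdh and Prodh) were lower and 1 (Bcat2) higher. Of the 31, 15 were lower and 0 higher, where 10.6% of all genes tested were lower and 10.7% higher. No test was made between these lists.

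Isozymes and relatives of these enzymes outside the set, some of them used in other tissues or compartments, were taken as a list of 10 genes, of which 8 were tested. At the first step 4 fell and at the second 4, and none rose at either. Ido2, a relative of Ido1 that acts on tryptophan as Tdo2 does, fell furthest of them: it had 51.9, 72.3 and 99.1 CPM in early, 4.97, 7.07 and 7.98 in intermediate, 0.425, 0.446 and 1.18 in full and 0.626, 0.885 and 2.19 in BEC, and full held 0.919% of its early level. Mat2a, the methionine adenosyltransferase of tissues other than liver, had 184, 169.97 and 161 CPM in early, 164, 174 and 194 in intermediate, 141, 149 and 174 in full and 128, 95.98 and 96.6 in BEC. It was not called at the first step (0.048, and 0.71 with total counts only, which was called) or the second (-0.20), and was lower in BEC than in full (log2 change -0.53 ± 0.13 SE, edgeR adjusted p 0.00722). Mat2b, its regulatory partner, had means between 53.6 and 59.8 CPM in the 4 groups and was not called between BEC and early (0.16, edgeR adjusted p 0.188), but was called higher with total counts only (1.03) and without early replicate 1 (0.25, edgeR adjusted p 0.0465). Ahcyl1, related to Ahcy, had 234, 225 and 224 CPM in early, 196, 203 and 202 in intermediate, 196, 180.5 and 176 in full and 235, 205 and 195 in BEC, and was not called between BEC and early (-0.10, edgeR adjusted p 0.305) except with total counts only (0.76). Ahcyl2 had 20.96, 25.9 and 28.2 CPM in early, 24.5, 29.1 and 34.8 in intermediate, 30.1, 35.8 and 34.4 in full and 48.8, 46.6 and 47.9 in BEC, and was higher in BEC than in full (log2 change 0.52 ± 0.13 SE, edgeR adjusted p 0.0123), a call lost without full replicate 1 (edgeR adjusted p 0.0612).

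Among the transaminases, Gpt2, the mitochondrial alanine form, had 1006, 1158 and 1149 CPM in early, 694, 812 and 904 in intermediate, 465, 455 and 505 in full and 292, 292 and 280.1 in BEC. It fell at the first step (log2 change -0.46 ± 0.11 SE, edgeR adjusted p 0.00265, but 0.20 with total counts only), the second (-0.76) and between full and BEC (-0.72). BEC held 26.1% of its early level against 8.31% for Gpt. Got2, the mitochondrial aspartate form, had 663, 610.3 and 719 CPM in early, 198, 200.3 and 209.8 in intermediate, 147, 129.6 and 136 in full and 113, 106 and 108 in BEC, and fell at each step. Its lower level in BEC than in full (-0.34, edgeR adjusted p 0.0137) was not called without full replicate 1 (edgeR adjusted p 0.0672) or BEC replicate 2 (0.0628).

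A wider list of 55 other genes of these pathways, which holds all 10 of these isozymes and relatives, had 51 genes tested. At the first step 40 were lower and 5 higher, at the second 35 and 2, and in BEC against full 16 and 1. Their median log2 fold change between BEC and early was -1.94, with 41 lower and 6 higher. In the methionine, folate and transsulfuration list, 7 of 15 fell and 2 rose at the first step. Pemt, which uses S-adenosylmethionine to make phosphatidylcholine, fell to 1.43% of early in full. In the tryptophan list all 5 tested genes fell at both steps, and 3 were lower in BEC than in full. These were Qprt, which makes the NAD precursor from quinolinate (log2 change -3.46 ± 0.22 SE, edgeR adjusted p 2.14e-07), and the kynurenine aminotransferases Aadat (-2.92) and Kyat3 (-2.51). Qprt read 73.3, 53.9 and 69.5 CPM in full and 3.56, 6.06 and 8.18 in BEC, without overlap. In the lysine and branched-chain list, 16 of 17 fell at the first step and 15 at the second, 2 were lower in BEC than in full, and Bckdk, the kinase that inhibits the ketoacid dehydrogenase, rose at the first step (log2 change 0.71 ± 0.12 SE, edgeR adjusted p 0.000221).

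RefSeq start windows were matched for 39 of the 46 genes. Mat1a, Cdo1, Sds, Sdsl, Gpt, Kynu and Cth had no entry. The number of CpG in the 300 bases had a median of 6 over the 20 matched genes below 2% of early in BEC and of 11 over the 19 others, where all genes of the table had 8. Across the 39 genes, the CpG number and the log2 fold change between BEC and early had a Spearman rho of 0.33 and a Pearson r of 0.25, given as a description over genes that share libraries. Where a gene has several windows, these values use the one with the most CpG, and with the fewest CpG rho was 0.20. Bhmt2 and Dmgdh, with 26 and 25 CpG, were both among the genes near 1% of early. Their windows share most of their bases, so they are not separate cases.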

How the data were processed

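Raw counts for every gene symbol in the 12 libraries were taken from the table the authors deposited. Reads were aligned with STAR 2.7.10b to GRCm39 and counted with featureCounts 2.0.1, per the submitters' processing notes, which also name DESeq2. Strandedness, the annotation and how reads matching several genes were handled are not given in the sources used here, so related genes that can share reads (Bhmt and Bhmt2, Sds and Sdsl) are uncertain to that extent. A second table, of the same counts divided by size factors, was not used. Every row had a gene name and every column a sample.

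Genes were kept by filterByExpr (16210 genes), scaled by TMM and fitted in 1 model with a term per group by the quasi-likelihood method of edgeR 4.0.16 (R 4.3.3), with Benjamini-Hochberg adjustment over all genes tested. The common coefficient of biological variation came to 14.8%. The procedure was also run on simulated counts, and the outcome is not given here. A level of 3 counts, between 0.128 and 0.273 CPM by library, was taken as the floor, which covers counting error only. Transcript lengths were those of GENCODE M21, and start windows those of RefSeq on GRCm38.p6. The members and lists were chosen with earlier results of these data known. Values in every library are given for the gene of each branch with the highest early level and those with the largest and smallest fall between BEC and early, for genes called higher at any step, and for most counterpart isozymes tested. Others were named for a role in the branch or after their values were seen.

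Replicates of a group differed beyond counting error (chi-square per degree of freedom from 4.95 to 52.1). Deviations of same-numbered libraries from their group means correlated across genes with r of at least 0.121 (intermediate, early), 0.137 (full, intermediate) and 0.170 (BEC, full). The number was therefore used as a block in an alternative fit, though the labels do not say what a number marks. The main fit had no term for it, so calls and p-values given without the block ignore any such pairing. Over full and early the lowest r was 0.096, and over BEC and early 0.044. Alternatives were DESeq2 1.42.0, median-of-ratios factors, total counts only, no filter, a mean of at least 50 counts, the replicate block, only the groups compared, a minimum 2-fold change, and leaving out each library. Protein sequences were not analysed here.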

Additional observations from a re-analysis of the deposited data

How the results depend on the processing

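Counts of called genes among the 46 and their medians stayed within 1.5 times the reported count, or within the spread between libraries, for full and BEC against early, and for lower calls at the first step, under every alternative, except that total counts only moved the medians to -1.53 at the first step, -1.69 at the second, -3.03 for full against early and -4.83 for BEC against early. With total counts only, 2 genes were higher at the first step (Sdsl and Pipox) and 1 at the second (Amt), 85.6% of all calls at the first step were higher rather than 52.8%, and 72.6% at the second, 81.8% for full against early and 80.3% for BEC against early. The summed level was then 15343 CPM in early, 1841 in full and 1103 in BEC, and the difference between steps was called for 7 genes toward the first and 9 toward the second. Against a minimum 2-fold change, 27 genes were lower at the second step, 5 were lower in BEC than in full, and 1 gene differed toward the first step and 0 toward the second.

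With the replicate block, 2 genes were higher in BEC than in full (Bcat2 and Aass), and the step difference was called for 19 and 7 genes. Within single comparisons of groups, the block added calls for Pipox, Mccc1, Etnppl and Aass, as given above, and removed none.

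Some directions turned. With total counts only this held for Pipox (0.45), Csad (0.15) and Gpt2 (0.20) at the first step, Mat2a at the second (0.00171), and Amt (0.017), Mat2a (0.18) and Ahcyl1 (0.76) between BEC and early. Others were values near 0. Mat2a at the first step was -0.00657 by DESeq2 and -0.00658 with median-of-ratios factors, and ran from -0.022 (without intermediate replicate 3) to 0.11 when libraries were left out. Cbs at the second step, at most 0.089 with a library left out, was -0.011 and -0.024 without intermediate replicates 2 and 3, and -0.13 without full replicate 1. In BEC against full, Hpd, at most 0.31, was -0.086 and -0.077 without full replicates 1 and 2, and -0.064 and -0.18 without BEC replicates 2 and 3. Mat1a was 0.071 and Bhmt 0.00423 without full replicate 3, and 0.034 and 0.053 without BEC replicate 1, against lows of -0.39 and -0.29 without BEC replicate 3. The cause was not tested.

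Leaving out 1 library at a time gave, at the first step, 43 to 45 lower and 0 to 1 higher, with medians from -2.24 to -2.13. The second step gave 43 lower and 0 higher throughout, with medians from -1.96 to -1.84. BEC against full gave 17 to 20 lower and 1 to 2 higher (Prodh2 without full replicate 3), with medians from -0.56 to -0.16. All 46 genes remained lower in full and in BEC than in early, with medians from -3.96 to -3.85 and from -5.81 to -5.51. The step difference was called for 8 to 14 genes toward the first and 4 to 5 toward the second. Summed levels ran from 23854 to 24461 CPM in early, from 4482 to 4872 in intermediate, from 1449 to 1547 in full and from 830 to 964 in BEC. Values of Acmsd rest on few counts, as few as 3 in a BEC library.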

Other observations

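In serine synthesis, Phgdh and Psat1 rose at the first step and Psph fell, where 28.7% of all genes tested were called higher. Phgdh, the first enzyme of the route from glycolysis to serine, had 4.90, 3.46 and 3.97 CPM in early, 12.01, 13.9 and 10.1 in intermediate, 25.3, 20.9 and 22.3 in full and 32.8, 27.7 and 26.7 in BEC. It rose at the first step (log2 change 1.54 ± 0.17 SE, edgeR adjusted p 5.60e-06) and the second (log2 change 0.93 ± 0.15 SE, edgeR adjusted p 0.000232), and its full and BEC libraries were not called apart (0.35, edgeR adjusted p 0.115). Psat1, the aminotransferase that follows it, had 5.93, 2.27 and 4.53 CPM in early, 12.4, 11.8 and 8.66 in intermediate, 16.8, 17.7 and 16.3 in full and 5.97, 7.87 and 8.09 in BEC. It rose at the first step (log2 change 1.35 ± 0.26 SE, edgeR adjusted p 0.000624) and the second (log2 change 0.63 ± 0.23 SE, edgeR adjusted p 0.0468), and was lower in BEC than in full (log2 change -1.21 ± 0.24 SE, edgeR adjusted p 0.00210). Psph, the last enzyme of the route, fell at the first step (-0.49, edgeR adjusted p 0.0207) and had means between 7.92 and 12.6 CPM.

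In the folate arm of the methionine cycle, Mtr, which remethylates homocysteine with methyl folate, had 20.5, 19.8 and 22.8 CPM in early, 24.5, 28.5 and 27.8 in intermediate, 27.02, 33.8 and 32.5 in full and 27.5, 30.5 and 31.1 in BEC. Its early and intermediate libraries did not overlap (log2 change 0.36 ± 0.12 SE, edgeR adjusted p 0.0182), whereas Bhmt, which does so with betaine, fell at the same step.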
